A study of Schmidtea mediterranea with 16 samples.

Results

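The irradiation response of control X1 cells was described from 8 of the 16 RNA-seq libraries of the series, chosen by their labels as those of unc-22(RNAi) animals. X1 cells are a flow cytometry gate of dissociated planarian cells (Schmidtea mediterranea) with a high DNA content. The irradiated group held 4 libraries of X1 cells from unc-22(RNAi) animals that received 2000 rads, collected 1 day later. The unirradiated group held 4 libraries of X1 cells from unc-22(RNAi) animals without irradiation. Both groups thus carried the same RNA interference, directed at a nematode muscle gene and used as a control knockdown. The other 8 libraries, from atm(RNAi) animals with and without the same irradiation, entered the estimate of the spread between libraries and 1 comparison of single genes.

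Planarian neoblasts are the dividing cells of the adult animal and include the stem cells that replace all its tissues. Ionising radiation breaks DNA, and a high dose removes neoblasts from the animal within days. Because the X1 gate collects cells with replicated DNA, it is made up mostly of dividing neoblasts in unirradiated animals. The comparison asked which transcripts differed in the cells of this gate after irradiation. The files give genes by identifiers of the dd_Smed_v6 transcriptome and do not pair them with names, so no marker list of neoblasts or of other cell types could be read. The content of the gate after irradiation therefore rests on the labels. In sorted bulk RNA, fewer cells of a type and less RNA per cell cannot be told apart.

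The irradiated libraries held 6.99 to 15.1 M reads counted in genes and the unirradiated libraries 17.8 to 26.5 M (M, reads in units of 1000000), without overlap. Unmapped reads made up 50.5% to 70.9% of the reads in irradiated libraries and 31.9% to 46.4% in unirradiated libraries. Each of these differences had an exact two-sided permutation p of 0.0286, the smallest that 70 splits allow, and 0.0429 after Benjamini-Hochberg adjustment over 6 library measures. With 1 unirradiated library left out, whichever it was, the adjusted p of these exact tests lay between 0.0571 and 0.114. The share of mapped reads placed at several positions was 14.9% ± 0.65 in irradiated and 14.8% ± 0.73 in unirradiated libraries (SD, n = 4 each; exact permutation p = 0.857). Reads on the opposite strand were 1.79% ± 0.43 of the reads counted in genes in irradiated and 1.83% ± 0.39 in unirradiated libraries (SD, n = 4 each; exact permutation p = 0.943). Within lanes the irradiated minus unirradiated difference in this share had opposite signs, -0.61 percentage points without overlap in lane 7 and 0.54 points with overlap in lane 8. The lower depth and the higher unmapped share ran with irradiation in all 4 libraries, and their part in the results below was not tested. The lane is read here from a tag in the names of the deposited per-library counts, and the sample titles do not state it. By this tag, libraries 1 and 2 of each group were on lane 8 and libraries 3 and 4 on lane 7. Both lanes thus held both groups.

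More genes were detected in irradiated cells although their libraries were shallower. At 1 CPM (1 read per 1000000 reads counted in genes), 14396, 15459, 14282 and 14798 genes were detected in the 4 irradiated libraries. The unirradiated libraries had 12791, 12670, 12282 and 12404 such genes. The lowest irradiated library lay above the highest unirradiated library, and the means differed by 2197 genes (exact two-sided permutation p = 0.0286, adjusted 0.0429 over 6 measures, and 0.0571 to 0.0857 with 1 unirradiated library left out). After random thinning of every library to 6992662 reads, 15892 ± 449 genes had at least 5 reads in irradiated and 13847 ± 316 in unirradiated libraries (SD, n = 4 each). At this equal number of reads counted in genes, the difference of 2046 genes was again without overlap (exact permutation p = 0.0286). Within lane 7 and within lane 8 the difference at 1 CPM was 2197 genes each.

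The reads were at the same time more concentrated on a few genes. The 10 genes with the most reads in each library took 16.6%, 25.7%, 17.3% and 23.3% of the gene reads in irradiated cells. In unirradiated cells they took 10.9%, 12.5%, 12.5% and 13.3%. The groups did not overlap (difference 8.43 percentage points, exact two-sided permutation p = 0.0286, adjusted 0.0429 over 6 measures, and 0.0857 to 0.129 with 1 unirradiated library left out). For the 100 genes with the most reads the shares were 40.0% ± 1.35 in irradiated and 36.0% ± 1.22 in unirradiated cells (SD, n = 4 each), a smaller gap of 4.01 percentage points. The top 2 genes of each library alone held 14.4% ± 5.55 in irradiated and 4.86% ± 1.03 in unirradiated cells (SD, n = 4 each). This gap of 9.56 points was the largest of the 3. Below the top 2, the rest of the top 10 and of the top 100 thus held a smaller mean share in irradiated cells.

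Of 17843 genes that passed the filter on low counts, 8442 differed between irradiated and unirradiated cells, 47.3% of the genes tested (edgeR quasi-likelihood test, Benjamini-Hochberg adjusted p under 0.05). The 4254 higher genes were 23.8% and the 4188 lower genes 23.5% of those tested. The numbers in each direction were close under this scaling, and their balance moved with the scaling and the tool. It was 4698 higher and 3714 lower with relative log expression factors, 4482 and 3719 with upper quartile factors, and 5305 and 3961 with DESeq2. The sizes of change differed between the directions. The median log2 fold change was 2.28 over the higher genes and -0.97 over the lower genes, against 0.17 over all tested genes. The higher genes had fewer reads, with a median of 2.85 CPM in unirradiated cells against 46.8 CPM for the lower genes. Among called genes with a mean of 10 to 100 CPM over the 8 libraries, the medians were 1.57 and -0.94. Under 1 CPM they were 4.82 and -5.45, so the order of sizes turned round there. At least 4-fold changes were counted for 2451 higher and 483 lower genes, and at least 16-fold changes for 418 higher and 151 lower genes. These counts do not set aside genes with 0 reads in the lower group, which were 92 of the higher and 95 of the lower genes. The size of their fitted fold change depends on the prior count. The median over all tested genes moved to 0.29 with relative log expression factors and to 0.24 with upper quartile factors, so a fold change near these values carries no direction.

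The direction of the called genes depended on how many reads a gene had. CPM here is given per 1000000 reads of a library scaled by its TMM factor and is not divided by transcript length. A class of CPM is therefore a class of read abundance, and genes with more reads also have less counting error. Among the 136 genes above 1000 CPM in the mean of the 8 libraries, 100 were called lower and 9 higher. Between 100 and 1000 CPM, 820 of 1371 genes were lower and 184 higher. Between 10 and 100 CPM the split was 2422 lower and 1630 higher among 5999 genes. It turned round between 1 and 10 CPM, where 2155 of 6649 genes were higher and 677 lower. Under 1 CPM, 276 of 3688 genes were higher and 169 lower.

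**Figure D1:**
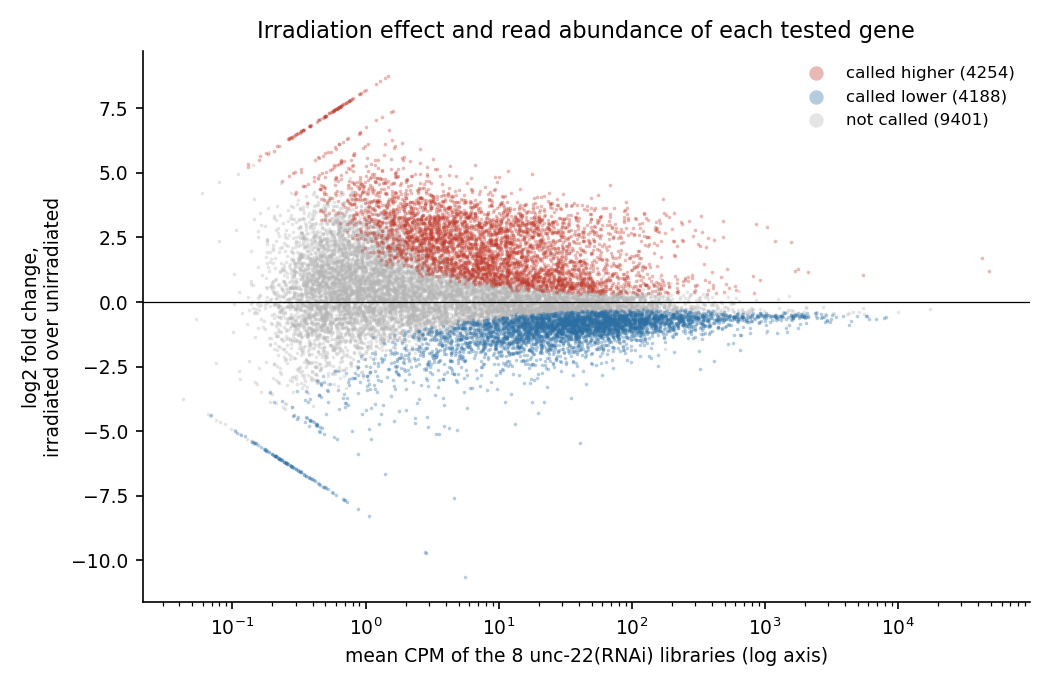
Log2 fold change of each of the 17843 tested genes, irradiated over unirradiated unc-22(RNAi) cells, against its mean CPM over the 8 libraries on a log axis. Red points are the 4254 genes called higher, blue points the 4188 called lower and grey points the other 9401 genes. The straight rows of points at the left edge are genes with no or few reads in 1 of the groups, whose fitted fold change depends on the prior count.

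The median log2 fold change of all genes in a class, called or not, followed the same order. It was -0.54 above 1000 CPM, -0.53 between 100 and 1000 CPM and -0.25 between 10 and 100 CPM. It was 0.78 between 1 and 10 CPM and 0.61 under 1 CPM. The medians of the classes above 10 CPM stayed below 0 with relative log expression factors, at -0.43, -0.42 and -0.14, and with upper quartile factors, at -0.47, -0.45 and -0.18. Within lane 7 alone the differences of mean log2 CPM had medians of -0.50, -0.50 and -0.25 in these 3 classes, and within lane 8 alone of -0.63, -0.63 and -0.30. From 1 to 10 CPM they were 0.71 within lane 7 and 0.61 within lane 8, and under 1 CPM 0.32 within lane 7 and 0.18 within lane 8. These within-lane values use a prior count of 2, which shrinks differences at low counts, and so are not on the scale of the fitted fold changes.

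Classes set by the unirradiated libraries alone gave a steeper order. Of the genes called in a class, 95.3% were lower above 1000 CPM, 93.0% between 100 and 1000 CPM and 71.4% between 10 and 100 CPM. Between 1 and 10 CPM 20.9% were lower, and under 1 CPM 8.87%. This basis uses the group against which irradiated cells were set, so a gene low there by chance is placed in a low class and reads as risen. A gene high there by chance is placed in a high class and reads as fallen. A gene near 0 reads in unirradiated cells could also pass the filter only through a group in which it was higher. The lowest classes hence favour rising genes by their construction, and on the unirradiated basis the highest classes favour falling genes. Both bases are shown in the plot of calls by class.

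**Figure D2:**
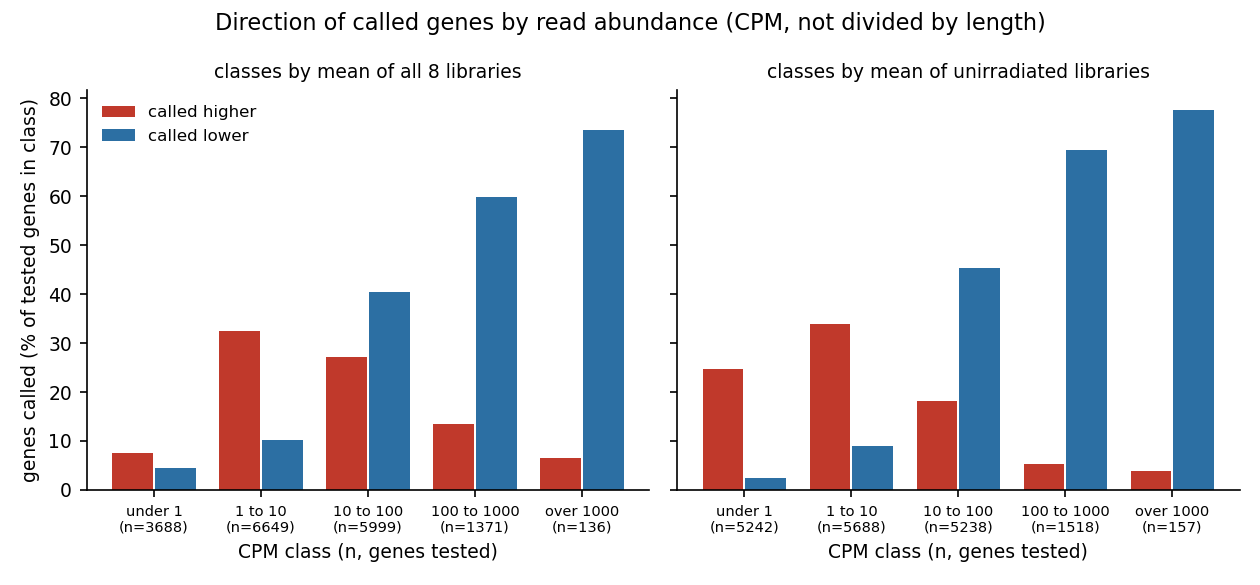
Genes called higher (red) and lower (blue) in irradiated unc-22(RNAi) cells as a percentage of the genes tested in each class of CPM. The left panel sets classes by the mean of all 8 libraries and the right panel by the mean of the 4 unirradiated libraries. On both sides the lower genes outnumber the higher ones from 10 CPM upward, and the higher ones outnumber the lower ones under 10 CPM.

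Taken by their reads, the called genes exchanged a large part of each library. The 4254 higher genes held 20.8%, 44.5%, 26.4% and 36.5% of the reads of tested genes in the 4 irradiated libraries. In the unirradiated libraries they held 8.76%, 11.1%, 10.2% and 11.5%. The 4188 lower genes held 50.4%, 31.7%, 46.9% and 38.6% in irradiated and 63.6%, 62.2%, 64.1% and 62.1% in unirradiated libraries. The 9401 genes that were not called held 26.1% ± 2.22 in irradiated and 26.6% ± 0.81 in unirradiated libraries (SD, n = 4 each). These genes were sorted by the same libraries, so the shares are a description without a test. Their 95% Wilson intervals reach at most 0.0371 percentage points to either side and cover counting error only.

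Only part of the gain of the higher genes lay in the 2 genes with the most reads, both called higher. They held 14.4% ± 5.56 of the reads of tested genes in irradiated and 4.74% ± 1.24 in unirradiated libraries (SD, n = 4 each). These 2 genes were not the top 2 of every library. In unirradiated replicate 1 they held 3.11% of the reads of tested genes, against 3.62% of the gene reads for the top 2 genes of that library. Of the reads outside these 2 genes, the other higher genes held 12.9%, 29.8%, 17.6% and 23.3% in irradiated libraries. In unirradiated libraries they held 5.83%, 6.46%, 5.72% and 5.73%.

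**Figure D3:**
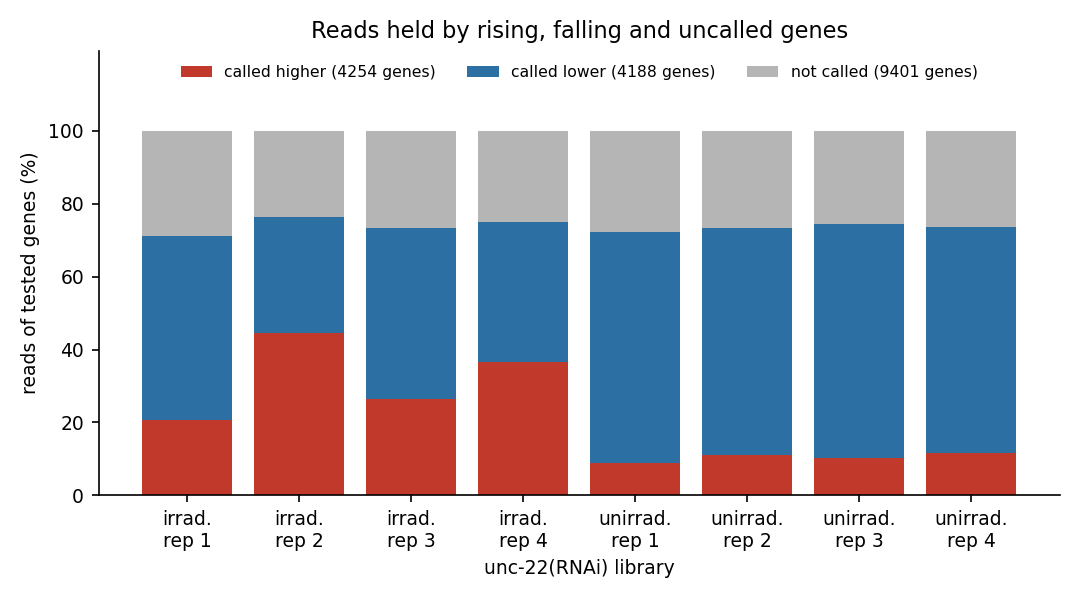
Share of the reads of tested genes, in percent, that fell in the genes called higher (red), called lower (blue) and not called (grey), for each unc-22(RNAi) library. Irradiated replicate 2 has the largest red part at 44.5% and irradiated replicate 1 the smallest of the irradiated libraries at 20.8%, while the unirradiated libraries run from 8.76% to 11.5%.

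The 4 irradiated libraries differed among themselves in how far they had moved. Irradiated replicates 1 to 4 had 2266, 4459, 3234 and 3833 genes at least 2-fold above all 4 unirradiated libraries. They had 1559, 3874, 1944 and 1989 genes at least 2-fold below all 4. Set against its 3 partners, each unirradiated library had 388 to 523 genes at least 2-fold above and 402 to 1269 below, although 3 libraries are an easier limit to pass than 4. Every irradiated library thus exceeded every unirradiated one in both directions, and replicate 2 stood farthest out.

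The order of the libraries was the same for rising and falling genes. Against the mean of the unirradiated libraries, the median shift in log2 CPM of the called higher genes was 2.62 in irradiated replicate 2, 2.26 in replicate 4, 1.96 in replicate 3 and 1.33 in replicate 1. For the called lower genes it was -1.41 in replicate 2, -1.01 in replicate 4, -0.81 in replicate 3 and -0.72 in replicate 1. Replicate 2 was the highest of the 4 irradiated libraries for 58.2% of the higher genes and the lowest for 66.6% of the lower genes. Replicate 1 was the lowest for 59.0% of the higher genes and the highest for 53.9% of the lower genes. The unmapped shares of irradiated replicates 1 to 4 were 65.6%, 70.9%, 50.5% and 58.5%, and their gene totals 6.99, 10.6, 15.1 and 12.4 M. Irradiated replicates 2, 4 and 3 had the same order in unmapped share and in shift, replicate 1 did not, and the part of either measure in the shifts was not tested.

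**Figure D4:**
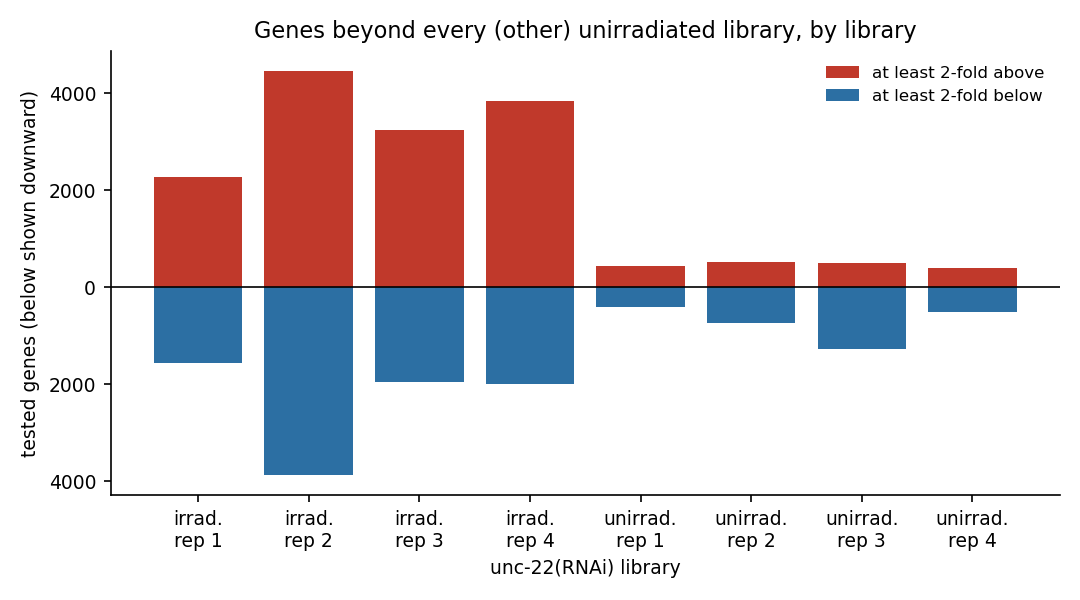
Number of tested genes at least 2-fold above (red, upward) or below (blue, downward) all 4 unirradiated unc-22(RNAi) libraries for each irradiated library, and beyond the other 3 for each unirradiated library. Irradiated replicate 2 has the most genes in both directions, 4459 above and 3874 below, and irradiated replicate 1 has the fewest of the irradiated libraries.

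Lane 8 held the libraries with the largest and the smallest shift, replicates 2 and 1. With the libraries of lane 8 alone, 2 per group, 58 genes were called, with 4688 at an unadjusted p under 0.05. With lane 7 alone, 2 per group, 6430 were called, of which 6024 were among the 8442 (edgeR, same threshold). The count of 8442 became 9074 without irradiated replicate 1 and 7637 without irradiated replicate 2.

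Genes chosen on 1 lane were then read on the other, which shares no library with it. In lane 8, 4021 genes were at least 2-fold higher and 2968 at least 2-fold lower in irradiated cells, with no overlap between 2 and 2 libraries. In lane 7, 92.4% of the 4021 genes were higher in irradiated cells, where 52.2% of all tested genes were. At least 2-fold higher there were 78.4% of them, against 31.0% of all tested genes. Of the 2968 genes lower in lane 8, 90.3% were lower in lane 7, where 47.8% of all tested genes were, and 61.6% were at least 2-fold lower, against 17.9%. The median log2 difference of the rising genes was 2.18 in lane 8, on which they were chosen, and 2.03 in lane 7. That of the falling genes was -1.58 in lane 8 and -1.17 in lane 7.

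Irradiated libraries were more variable than unirradiated ones. They also held fewer reads, and the part of depth in this spread was not tested. The SD of log2 CPM over the 4 irradiated libraries was larger than that over the 4 unirradiated libraries for 75.9% of the tested genes. It was larger for 88.2% of the called lower genes and 65.1% of the called higher genes. Over all tested genes above 1000 CPM in the mean of the 8 libraries, the median SD was 0.46 in irradiated and 0.12 in unirradiated libraries. Under 1 CPM the medians were 1.58 in irradiated and 1.08 in unirradiated libraries. Called lower genes had a median SD of 0.43 in irradiated and 0.16 in unirradiated libraries. Called higher genes had a median SD of 0.71 in irradiated and 0.52 in unirradiated libraries.

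Part of that gap between rising and falling genes ran with their read abundance. The median level of the lower genes was 23.4 CPM in irradiated and 46.8 CPM in unirradiated cells. That of the higher genes was 12.03 CPM in irradiated and 2.85 CPM in unirradiated cells. Within the class of 10 to 100 CPM the median SD was 0.54 for higher and 0.39 for lower genes in irradiated libraries, and 0.33 for higher and 0.16 for lower genes in unirradiated libraries. For 40.6% of all tested genes, the irradiated libraries lay either all above or all below the unirradiated ones. This held for 87.6% of the called lower, 70.9% of the called higher and 5.88% of the uncalled genes. Calls and separation used the same libraries, so the gap between called and uncalled genes follows largely from that choice. How far the share of separated genes also depends on read abundance and on the spread of the unirradiated libraries was not tested.

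At the extremes were genes read in 1 group only. Among tested genes, 109 had 0 reads in the 4 irradiated libraries together and 97 had 0 reads in the 4 unirradiated libraries together. The pooled depths were 45.2 M reads in irradiated and 86.3 M in unirradiated cells, so a count of 0 allows up to 0.0664 CPM in irradiated and 0.0348 CPM in unirradiated cells (3 reads over the group). Genes at 0 in irradiated cells reached at most 11.1 CPM in unirradiated cells. Genes at 0 in unirradiated cells reached at most 2.94 CPM in irradiated cells. Genes at 0 in a group passed the filter through groups in which they were higher, so their direction was fixed by the choice. Their calls are part of the counts of called genes given above, and nothing is read from them.

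Since the files hold counts per transcript, the transcripts of a gene could be set beside each other. Of 20177 transcripts tested in a fit of their own, 8739 were called, 43.3%, with 4185 higher and 4554 lower in irradiated cells by the same test. At least 2 tested transcripts were found for 1884 genes, and at least 2 called transcripts for 211 of them. The called transcripts were all higher in 80 of these genes and all lower in 100. In 31 genes, 14.7% of the 211, transcripts of the same gene were called in both directions. The highest and the lowest called transcript of these 31 genes differed by a median of 3.24 in log2 fold change, with a range of 1.38 to 9.78. On the summed counts 18 of the 31 genes were not called, 12 were lower and 1 was higher. Reads that match several transcripts stay outside the counts, so these values come from the reads that tell the transcripts apart.

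Single genes are given for the 2 largest rises and the 2 largest falls among called genes with at least 100 CPM in the mean of the higher group and no overlap between 4 and 4 libraries. The rule was met by 248 rising and 1058 falling genes. Each of the 4 named genes consists of 1 transcript, and the function of none is given by the files.

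The largest rise was that of dd_Smed_v6_12394_0_1. It had 181, 59.2, 175 and 115 CPM in the irradiated libraries, against 5.16, 4.68, 7.90 and 4.999 CPM in the unirradiated libraries. The lowest irradiated library was replicate 2, in which most other rising genes stood highest. The log2 fold change of irradiation was 4.54 ± 0.30 (SE; edgeR adjusted p = 1.3e-07), and the groups were far apart. In atm(RNAi) cells it had 152, 108, 123 and 158 CPM with irradiation and 4.96, 5.72, 4.38 and 5.03 CPM without. The irradiation effect in atm(RNAi) minus that in unc-22(RNAi) was 0.21 ± 0.38 in log2 (SE; edgeR adjusted p = 0.802 for this interaction), so no difference of the effects was detectable. The interaction was called for 3.58% of all tested genes, and it uses the same unc-22(RNAi) libraries on which the 4 genes were chosen.

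The second rise, that of dd_Smed_v6_1792_0_1, was carried unevenly by the libraries. Its levels were 46.5, 259, 45.5 and 69.7 CPM in the irradiated libraries, against 2.09, 13.6, 5.05 and 3.44 CPM in the unirradiated libraries. Irradiated replicate 2 stood far above the other 3, and unirradiated replicate 2 was the highest of its group. The log2 fold change of irradiation was 4.13 ± 0.84 (SE; edgeR adjusted p = 0.000789). It was 3.15 without irradiated replicate 2 and 4.88 without unirradiated replicate 2. On lane 8 alone it was 4.32 and no longer called (edgeR adjusted p = 0.138, the highest of its 23 alternatives). The lowest adjusted p, 1.44e-06, came from the edgeR fit with the replicate number as a block. In atm(RNAi) cells the gene had 4.02, 75.8, 33.9 and 13.3 CPM with irradiation and 2.15, 9.57, 4.97 and 5.08 CPM without, and the interaction was -1.58 ± 1.07 (SE; edgeR adjusted p = 0.411).

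The largest fall was that of dd_Smed_v6_11867_0_1. It had 18.98, 12.2, 16.8 and 10.6 CPM in the irradiated libraries, against 109, 116, 103 and 89.6 CPM in the unirradiated libraries. All 4 irradiated libraries were far below the lowest unirradiated one. The log2 fold change was -2.84 ± 0.22 (SE; edgeR adjusted p = 2.24e-07), a level 7.16-fold lower in irradiated cells. In atm(RNAi) cells it had 117, 60.2, 73.3 and 71.6 CPM with irradiation and 104, 106, 86.8 and 87.5 CPM without, so these groups overlapped. The interaction was 2.58 ± 0.29 (SE; edgeR adjusted p = 0.000496).

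The second fall was that of dd_Smed_v6_2016_0_1, the most read of the 4 genes in unirradiated cells. Its levels were 141, 49.4, 86.9 and 90.7 CPM in the irradiated libraries, against 564, 542, 529 and 592 CPM in the unirradiated libraries. The irradiated libraries were ordered as for most falling genes at their ends, with replicate 2 lowest and replicate 1 highest. The log2 fold change was -2.60 ± 0.24 (SE; edgeR adjusted p = 7.96e-07), a level 6.07-fold lower in irradiated cells. On lane 8 alone it was -2.53 with an adjusted p of 0.0592, the highest of its 23 alternatives, the lowest being 1.23e-27. In atm(RNAi) cells it had 522, 287, 382 and 452 CPM with irradiation and 537, 508, 561 and 535 CPM without, with an interaction of 2.22 ± 0.32 (SE; edgeR adjusted p = 0.00279).

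**Figure D5:**
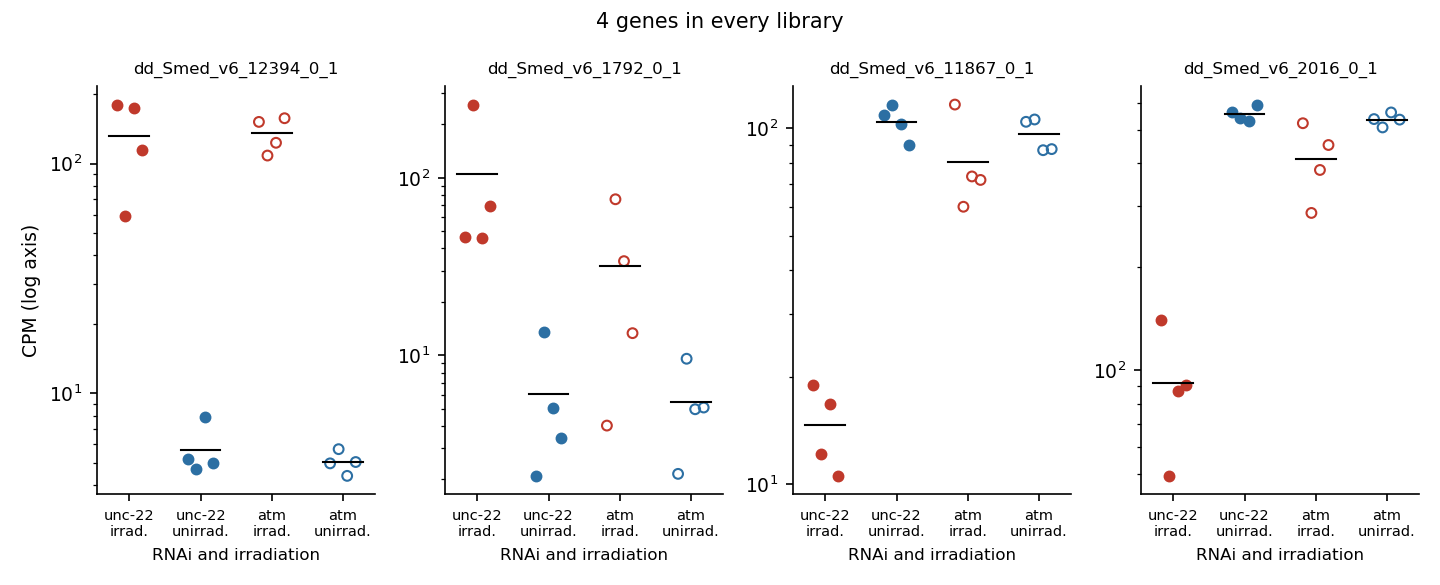
CPM of the 4 named genes in all 16 libraries on a log axis, with a panel per gene. Filled points are unc-22(RNAi) and open points atm(RNAi) libraries, red with and blue without irradiation, and black lines are group means. In dd_Smed_v6_11867_0_1 and dd_Smed_v6_2016_0_1 the irradiated unc-22(RNAi) libraries lie below all other libraries of the series.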

How the data were processed

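The authors deposited raw read counts, as a matrix of 26833 genes and as a file per library with counts per transcript for each strand. Per the submitters' processing notes, Trim Galore 0.6.5 and STAR 2.7.9 were used; settings are not given in the sources used here. All 429328 cells of the matrix equalled the reverse-strand transcript counts summed by gene. Per the labels' protocols, poly(A) libraries were made with a directional kit.

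The tests used edgeR 4.0.16 (R 4.3.3). The filterByExpr function kept 17843 genes and removed 8990. TMM scaling, dispersions and 1 quasi-likelihood fit used all 16 libraries with 1 coefficient for each group, which leaves 12 residual degrees of freedom. The alternatives used limma 3.58.1, DESeq2 1.42.0 and other filters, scalings, lanes and subsets. Log2 CPM used a prior count of 2. Library measures were compared by exact permutation. Named genes follow the rule given with them. The members, the rule and the tests were chosen with earlier results of these data known. Lists of DNA damage, cell cycle, apoptosis and cell type marker genes could not be matched to identifiers and are not analysed here. Replicates are separate samples by their labels. Nothing says whether they came from separate animals, so p-values set group differences against the spread between these samples, which may be technical. The main fit took 1 dispersion per gene for all groups. With a spread per group, limma-voom called 8023 genes. Libraries of a group differed by more than sampling noise (chi-square per degree of freedom at least 21.6).

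Tested on simulated counts for 17843 genes, the fit recovered 85% of 100 genes changed by 2 in log2 and 41% of 100 changed by 1. It made 3 false calls there, and called 0 genes with none changed. The changed genes were drawn only from genes with a mean log2 CPM above 2, so recovery below that level was not simulated. Far fewer genes changed in that simulation than the 47.3% called between the real irradiated and unirradiated unc-22(RNAi) libraries. In the real libraries the SD was also larger with irradiation for 75.9% of the tested genes. These rates therefore describe the simulated counts only, and recovery and false calls in the real comparison were not tested.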

Additional observations from a re-analysis of the deposited data

Results flagged for a closer look

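In 20 checks of a group of 4 libraries for a value far from the others, 2 were met, where chance gives about 1 in 20. For dd_Smed_v6_1792_0_1, irradiated replicate 2 had 259 CPM, and the other 3 irradiated unc-22(RNAi) libraries had 46.5, 45.5 and 69.7 CPM. For dd_Smed_v6_12394_0_1, unirradiated replicate 3 had 7.90 CPM, and the other 3 unirradiated unc-22(RNAi) libraries had 5.16, 4.68 and 4.999 CPM.

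The test of the interaction passed its threshold for 3.58% of all tested genes, and dd_Smed_v6_11867_0_1 and dd_Smed_v6_2016_0_1 were among them. Both were chosen for a large change in the unc-22(RNAi) libraries, which the interaction uses again, so nothing is read from their number. The difference was 2.58 in log2 for dd_Smed_v6_11867_0_1 (edgeR adjusted p = 0.000496) and 2.22 for dd_Smed_v6_2016_0_1 (edgeR adjusted p = 0.00279). Over 17 alternatives each, this adjusted p ran from 0.000161 to 0.00268 for dd_Smed_v6_11867_0_1 and from 0.00029 to 0.0101 for dd_Smed_v6_2016_0_1.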

How the results depend on the processing

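The count of 8442 called genes became 5393 of 8206 tested genes with at least 10 CPM in 4 libraries and 58 with lane 8 alone; the other alternatives gave between 6315 and 9266, and 7388 to 9074 with 1 library left out. Fits on the 8 unc-22(RNAi) libraries alone called 6801 genes, or 6315 with a replicate block, a fit chosen after seeing the data. With the replicate number as a block in all libraries, 8520 genes and 8743 transcripts were called, and no call of a named gene changed. Same-numbered irradiated and unirradiated unc-22(RNAi) libraries had correlations of their deviations of 0.047, 0.024, 0.070 and -0.057, and the main fit did not take the numbers as pairs. These correlations leave out the atm(RNAi) libraries and do not exclude a shared replicate effect in single genes. For dd_Smed_v6_1792_0_1, replicate 2 was the highest library in every group. Its edgeR adjusted p was 1.44e-06 with the replicate block and 0.000789 in the main fit. The interaction was tested without this block. With classes set by unirradiated libraries, the share of called genes that were lower was 8.87%, 20.9%, 71.4% and 93.0% in the classes from under 1 to 1000 CPM, against 37.98%, 23.9%, 59.8% and 81.7%. Genes chosen in lane 7 and read in lane 8 kept their direction in 91.2% of rising genes. A 4-fold limit gave 93.4% for rising and 83.5% for falling genes. With 1 library left out, the irradiated minus unirradiated difference ran from -11.6 to -8.65 M in gene total and from 19.96 to 26.8 percentage points in unmapped share. It ran from 6.77 to 9.80 points in the share of the top 10 genes, from 1955 to 2348 in detected genes, from -0.21 to 0.36 points in reads mapped to several places and from -0.24 to 0.080 points in opposite-strand reads. The adjusted permutation p of the first 4 measures rose above 0.05 whenever an unirradiated library was left out. It stayed at 0.0429 for each of them whenever an irradiated library was left out. The interaction of dd_Smed_v6_12394_0_1 ran from -0.029 to 0.43. The cause of these changes was not tested. Irradiated libraries held fewer reads, so their low counts carry the larger error.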
